A study of Mus musculus with 23 samples.

Results

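The effect of norcantharidin (NCTD) given intraperitoneally (IP) was followed in the 8 IP tumors of a mouse melanoma series of 23 tumors. The members were chosen by route and drug alone: the 4 tumors that received NCTD, without pentoxifylline (NCTD_IP, n = 2) or with it (MIX_IP, n = 2), were set against the 4 that did not (CONTROL_IP and PTX_IP, n = 2 each), with pentoxifylline (PTX, yes or no) as a covariate. The hosts were inbred DBA/2J mice aged 6 to 8 weeks that carried B16-F1 melanoma cells under the skin of the right flank. CONTROL_IP mice received sterile saline, PTX_IP mice 60 mg/kg PTX, NCTD_IP mice 3 mg/kg NCTD and MIX_IP mice 60 mg/kg PTX together with 3 mg/kg NCTD. B16-F1 is an established line from a C57BL/6 melanoma, so tumor cells and host cells came from different strains. The other 15 tumors were treated intratumorally (IT).

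NCTD is a demethylated analog of cantharidin, the blistering agent of certain beetles, and is known in biochemistry as an inhibitor of the serine/threonine phosphatases PP2A and PP1. These phosphatases remove phosphate groups from many signaling and cell cycle proteins, among them members of the MAPK and AKT pathways. PTX is a methylxanthine that inhibits phosphodiesterases. Messenger RNA was read from its 3′ end, and levels are given as CPM, the reads of a gene as a share of the tumor's total, scaled between tumors.

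The 8 libraries held 3533893 to 6702374 counts, and all 4 NCTD tumors (3533893 to 4133147) lay below all 4 others (4588826 to 6702374; exact permutation test over 70 splits, two-sided p = 0.0286, the smallest this design allows). At these depths 3 counts corresponded to 0.448 to 0.849 CPM. Depth and NCTD thus cannot be told apart. In counts thinned to the smallest total, 27 of 30 genes named for their small p were still tested. All 27 kept their direction, which their choice by small p favors, so this does not settle the role of depth. The low-count genes Eepd1, Cfd and ENSMUSG00000121093 dropped out. The melanoma markers were present: all 8 listed had counts in every tumor, with Dct, an enzyme of melanin synthesis, at 12907 to 20161 CPM and Sox10, a melanocyte lineage factor, at 364 to 490 CPM. CONTROL_IP tumor 2 was the only tumor of the 8 with counts of Xist (55 counts), the RNA of the inactive X chromosome, and had 0 to 3 counts of each of 4 Y-linked genes. PTX_IP tumor 3 had the highest summed keratinocyte markers (143 CPM, against 1.11 to 41.4 CPM in the others) and PTX_IP tumor 4 the lowest summed macrophage markers (310 CPM, against 728 to 1635 CPM). In bulk tumors, fewer cells of a type and less RNA per cell cannot be told apart. The labels give each tumor a number of its own and say no more on independence, so p-values measure the spread between these tumors.

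No gene stood out from the spread between tumors by the main test. Of 12424 genes tested with edgeR's quasi-likelihood test, 0 (0%) passed a Benjamini-Hochberg adjusted p below 0.05, and the smallest adjusted p was 1.00. At an unadjusted p below 0.05, 145 genes were higher with NCTD (1.17%) and 173 were lower (1.39%), 318 in all. The balance of higher and lower genes at this threshold varied: 152 and 157 in thinned counts, 155 and 135 with DESeq2, and 166 and 136 with limma-voom. DESeq2 called 3 genes at an adjusted p below 0.05, which were Tgtp1 (4.31e-07), Tgtp2 (0.0498) and Rlf (0.0498), and limma-voom called 0, with 302 at an unadjusted p below 0.05. The 4 NCTD tumors lay above all 4 others for 88 genes (0.708%) and below all 4 others for 131 (1.05%). Over all genes the median log2 fold change was -0.01, 97 genes had a log2 fold change of 1 or more and 166 of -1 or less. NCTD accounted for 11.8% of the squared distance between the tumors once PTX was taken into account, against a mean of 14.6% over all 36 assignments of NCTD within the PTX strata (exact permutation test, one-sided p = 0.833; the smallest p the design allows is 0.0556).

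The comparison can be split into NCTD_IP against CONTROL_IP and MIX_IP against PTX_IP, which share no tumor. In the former, 0 genes (0%) passed the adjusted test in edgeR and 446 (3.59%) had an unadjusted p below 0.05; in the latter, 0 genes (0%) passed and 614 (4.94%) had an unadjusted p below 0.05. DESeq2 called 1 gene, the predicted gene Gm4786, in the former and 5, among them Tgtp2, in the latter, and limma-voom called 0 in each, with 445 and 551 at an unadjusted p below 0.05. The pair of comparisons agreed in direction for 42.9% of all genes, and the rank correlation of their log2 fold changes across genes was -0.15, a description over 12424 genes that are not independent. Of the 446 genes, 161 (36.1%) went the same way on PTX, and of the 614 genes, 212 (34.5%) went the same way without PTX. Both unadjusted thresholds were passed by 56 genes, and 14 of them had the same direction. Higher in both were Rlf, B4galt6, H2-M2, Bcl6b, Gm9703, Gm6552, Gm8624 and Gm10224, and lower in both were Tgtp1, Steap4, Ifitm1, Adamts5, Cfd and Tpt1-ps3. Gm10224 and Gm4786 were named after their values were seen.

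**Figure D1:**
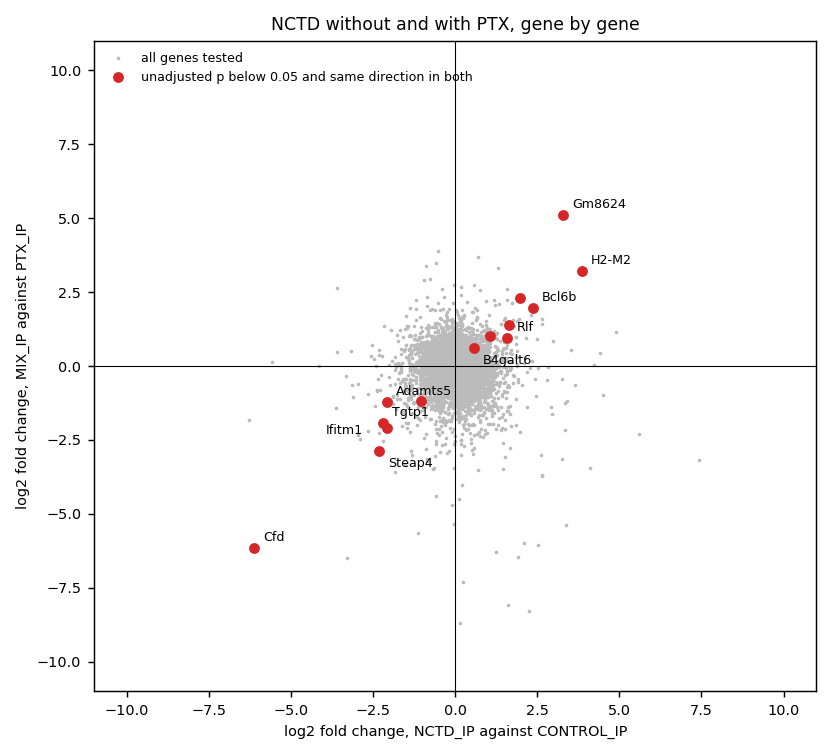
Log2 fold change of each of the 12424 genes for NCTD_IP against CONTROL_IP (x axis) and for MIX_IP against PTX_IP (y axis); red points are the 14 genes with an unadjusted p below 0.05 and the same direction in both. The grey cloud leans to opposite signs, with 42.9% of genes of the same sign, and Tgtp1, Steap4 and Ifitm1 lie in the lower left.

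The smallest p belonged to Tgtp1, and its near-identical relative Tgtp2 went the other way. Both encode interferon-inducible GTPases of the immunity-related GTPase family, which act against intracellular pathogens. Both lie on the minus strand of chromosome 11 (GRCm39 positions 48876154 to 48884999 for Tgtp1 and 48948021 to 48955033 for Tgtp2). Their promoters from RefSeq (GRCm38.p6, 250 bases before to 50 after the start) are shown because DESeq2 called both, in opposite directions. Capitals mark GAAA, any 2 bases and GAAA, a core of interferon-stimulated response elements, which was searched on both strands.
Tgtp1, chr11:48992197-48992496, minus strand: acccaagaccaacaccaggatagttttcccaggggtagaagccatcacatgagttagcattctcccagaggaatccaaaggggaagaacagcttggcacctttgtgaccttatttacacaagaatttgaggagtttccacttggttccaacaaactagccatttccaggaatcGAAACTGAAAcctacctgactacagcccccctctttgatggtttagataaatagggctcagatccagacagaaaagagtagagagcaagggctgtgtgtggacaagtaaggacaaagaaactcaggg
Tgtp2, chr11:49064163-49064462, minus strand: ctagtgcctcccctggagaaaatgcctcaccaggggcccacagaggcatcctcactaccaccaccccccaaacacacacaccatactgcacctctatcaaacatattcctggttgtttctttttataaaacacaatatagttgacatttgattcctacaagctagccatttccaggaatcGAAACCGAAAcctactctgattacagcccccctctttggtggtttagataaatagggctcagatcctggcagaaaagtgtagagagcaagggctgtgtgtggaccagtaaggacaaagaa
Each of the pair held the motif once, starting 77 bases before the start in Tgtp1 and 70 bases before it in Tgtp2, and 3.44% of 32851 promoters held it. The match is a description of these letters.

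Tgtp1 was at 384 and 285 CPM in CONTROL_IP, 466 and 217 CPM in PTX_IP, 78.8 and 67.3 CPM in NCTD_IP and 137 and 42.4 CPM in MIX_IP. All 4 NCTD tumors were below all 4 others, with a log2 fold change of -2.06 (SE 0.34; edgeR adjusted p = 1.00). The difference was -2.19 (SE 0.51) without PTX and -1.93 (SE 0.51) on PTX.

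Tgtp2 was at 29.1 and 49.5 CPM in CONTROL_IP, 19.04 and 12.4 CPM in PTX_IP, 70.9 and 53.6 CPM in NCTD_IP and 62.3 and 54.9 CPM in MIX_IP. All 4 NCTD tumors were above all 4 others (log2 fold change 1.25, SE 0.28; edgeR adjusted p = 1.00), with 0.66 (SE 0.30) without PTX and 1.89 (SE 0.32) on PTX. Tgtp2 thus took 3.93% to 14.8% of the counts of the pair in tumors without NCTD and 31.3% to 56.4% in tumors with it.

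The division of reads between the pair is uncertain. A Tgtp1 transcript of 2885 bases and a Tgtp2 transcript of 2810 bases in the reference had 2804 identical bases and 6 mismatches when aligned, and their last 1040 bases, from which 3′ libraries draw their reads, were identical. The summed counts of both genes were 413 and 334 CPM in CONTROL_IP, 485 and 230 CPM in PTX_IP, 150 and 121 CPM in NCTD_IP and 199 and 97.2 CPM in MIX_IP. The groups did not overlap, and the sum had a log2 fold change of -1.37 (SE 0.27; edgeR adjusted p = 1.00). In the IT tumors the share of Tgtp2 spread from 9.75% to 56.6% in 4 CONTROL_IT tumors and from 4.74% to 63.1% in 3 PTX_IT tumors. It spread from 5.41% to 46.5% in 4 NCTD_IT tumors and from 7.41% to 15.4% in 4 MIX_IT tumors.

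**Figure D2:**
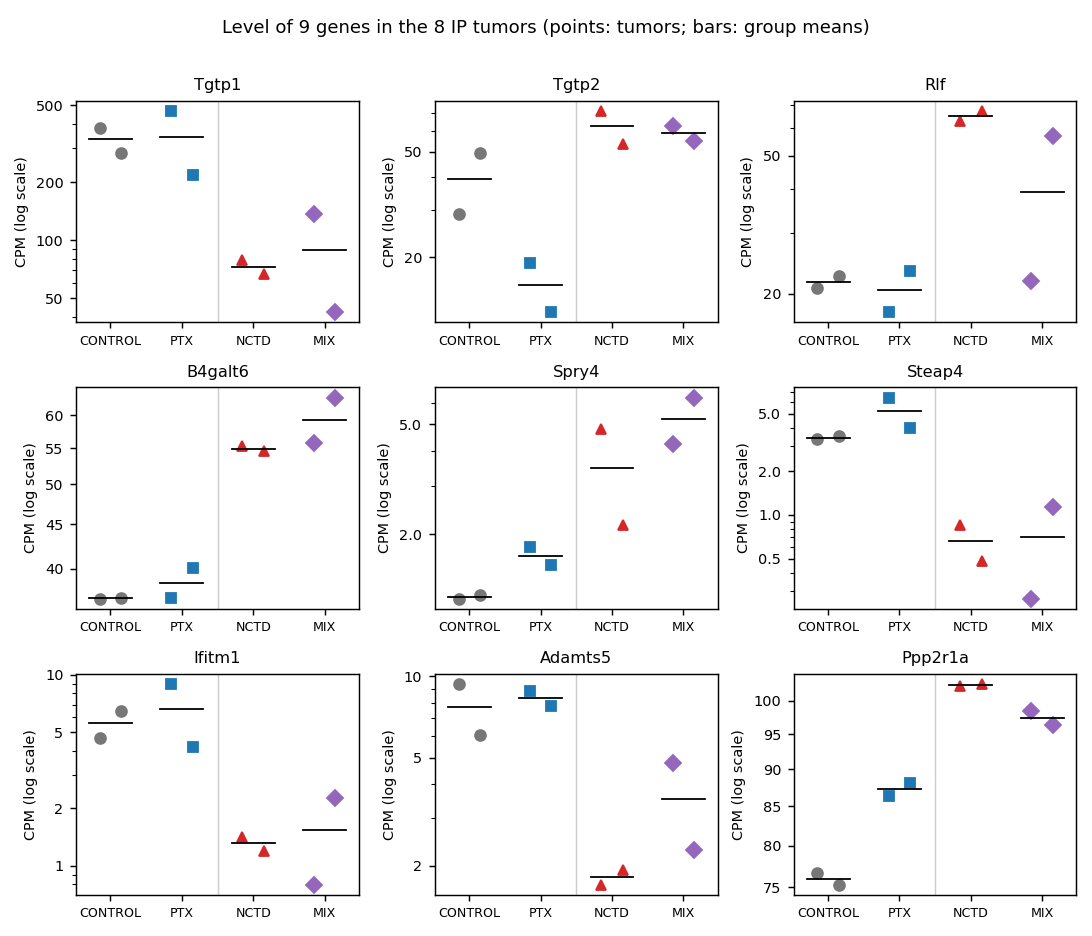
CPM on a log axis of 9 genes in each of the 8 IP tumors, 2 per group; points are tumors and black bars are group means, and the grey line parts tumors without NCTD (left) from those with it (right). All panels but Rlf, where MIX_IP tumor 7 (21.8 CPM) lies among the tumors without NCTD, show groups that do not overlap.

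Among the other genes higher with NCTD, B4galt6, the galactosyltransferase that makes lactosylceramide, was at 37.0 and 37.1 CPM in CONTROL_IP, 37.0 and 40.1 CPM in PTX_IP, 55.3 and 54.6 CPM in NCTD_IP and 55.7 and 62.8 CPM in MIX_IP. The spread within the tumors without NCTD was small, no tumor overlapped, and the log2 fold change was 0.60 (SE 0.13). Rlf, a zinc finger protein, was at 17.7 to 23.3 CPM without NCTD and at 62.9, 67.1 and 56.9 CPM in 3 NCTD tumors, whereas MIX_IP tumor 7 had 21.8 CPM (log2 fold change 1.27, SE 0.28). Cltc, the clathrin heavy chain, was at 440 to 895 CPM without and 801 to 1060 CPM with NCTD (0.63, SE 0.16), with overlap.

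Spry4, a Sprouty protein that restrains receptor tyrosine kinase and MAPK signaling, was at 1.17 and 1.21 CPM in CONTROL_IP, 1.80 and 1.55 CPM in PTX_IP, 4.82 and 2.16 CPM in NCTD_IP and 4.24 and 6.26 CPM in MIX_IP. It did not overlap between groups (log2 fold change 1.57, SE 0.45). At these levels Spry4 passed the filter on counts (minimum count 10) only through the NCTD tumors, which favors such a separation. The interferon-inducible Ifi205 was at 0.20 to 3.76 CPM without and 5.95 to 10.3 CPM with NCTD (1.65, SE 0.52), also without overlap. Mmp12, the metalloelastase of macrophages, was at 20.7 to 43.0 CPM without NCTD and at 68.5 to 80.8 CPM in 3 NCTD tumors, and NCTD_IP tumor 5 had 29.5 CPM (1.12, SE 0.29). The glycolytic enzyme gene Gapdh was at 145 to 324 CPM without and 321 to 430 CPM with NCTD (0.65, SE 0.21), with slight overlap.

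H2-M2, a nonclassical MHC class I gene, the transcriptional repressor Bcl6b, the myeloid lectin Clec4b1 and Eepd1 were near the limit of detection without NCTD, at 0 to 0.75 CPM. With NCTD they reached 1.06 to 9.38 CPM, 1.99 to 3.12 CPM, 1.42 to 3.61 CPM and 1.14 to 3.18 CPM, with log2 fold changes of 3.52 (SE 0.85), 2.16 (SE 0.55), 2.20 (SE 0.68) and 2.07 (SE 0.65). None of these 4 genes overlapped between groups, and each had an edgeR adjusted p of 1.00. All 4 passed the filter on counts only through the NCTD tumors, where they were high. Their separation and fold changes were favored by that entry and are no support for an effect.

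Among the genes lower with NCTD, Steap4, a metalloreductase of iron and copper, was at 3.32 and 3.48 CPM in CONTROL_IP, 6.45 and 3.99 CPM in PTX_IP, 0.85 and 0.48 CPM in NCTD_IP and 0.27 and 1.14 CPM in MIX_IP (log2 fold change -2.61, SE 0.54). Ifitm1, an interferon-induced transmembrane protein, was at 4.69, 6.50, 8.996 and 4.21 CPM without and 1.42, 1.20, 0.80 and 2.27 CPM with NCTD (-2.10, SE 0.47). Adamts5, a protease of aggrecan, was at 6.05 to 9.39 CPM without and 1.70 to 4.77 CPM with NCTD (-1.62, SE 0.38). In none of the 3 did the groups overlap, and the NCTD values of Steap4 were near the level of 3 counts. All 3 reached the filter on counts in enough tumors only without NCTD, which favors such a separation.

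The matrix-associated Ccdc80 (8.17 to 10.6 CPM without, 3.98 to 6.49 CPM with NCTD), the Argonaute gene Ago1 (13.04 to 16.8 and 5.57 to 11.3 CPM), Lsm3 of the Sm-like ring that binds U6 RNA (11.3 to 18.2 and 6.80 to 10.1 CPM), Tmem141 (14.4 to 18.4 and 7.11 to 11.5 CPM) and the zinc finger gene Zfp429 (5.08 to 10.9 and 2.55 to 5.04 CPM) were also lower without overlap. Their log2 fold changes were -0.92 (SE 0.29), -0.83 (SE 0.26), -0.73 (SE 0.23), -0.77 (SE 0.22) and -1.03 (SE 0.31). Hspb1, a small heat shock protein (-1.06, SE 0.27), and Npnt, the integrin ligand nephronectin (-0.97, SE 0.25), overlapped between groups.

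Cfd, the complement factor adipsin made by fat cells, was at 0 counts in all 4 NCTD tumors and at 0.20, 3.33, 2.699 and 0.89 CPM in the others. Pooled over tumors, the 45 counts without NCTD against the level of 3 counts over the 4 NCTD tumors made it at least 9.86-fold lower. This pooled bound leaves out the spread between tumors. CONTROL_IP tumor 1, at 0.20 CPM, lay below its own level of 3 counts (0.585 CPM). The log2 fold change was -6.13 (SE 1.69), and Cfd did not pass the adjusted test in edgeR. Cfd passed the filter on counts only through tumors without NCTD. Among genes of other biotypes the same rule named Gm9703 (8.55 to 14.9 CPM without, 18.8 to 34.1 CPM with NCTD), Gm6552 and Gm8624 as higher and Tpt1-ps3, Rpl17-ps10 and ENSMUSG00000121093 as lower. Gm8624 ranged from 1.65 to 12.1 CPM without NCTD and was at 47.9, 130, 1.86 and 197 CPM with it, so 1 MIX_IP tumor stayed in the range of the tumors without NCTD.

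Of the phosphatases that NCTD is known to inhibit, a scaffold subunit was higher in all NCTD tumors. Ppp2r1a, the main scaffold subunit of PP2A, was at 76.7 and 75.3 CPM in CONTROL_IP, 86.4 and 88.1 CPM in PTX_IP, 102 and 103 CPM in NCTD_IP and 98.4 and 96.4 CPM in MIX_IP. The log2 fold change was 0.30 (SE 0.13; edgeR adjusted p = 1.00). The catalytic subunits of PP2A, Ppp2ca (-0.06, SE 0.13) and Ppp2cb (-0.15, SE 0.20), the other scaffold Ppp2r1b (0.18, SE 0.15) and the catalytic subunits of PP1, Ppp1ca (-0.66, SE 0.52), Ppp1cb (0.02, SE 0.13) and Ppp1cc (0.08, SE 0.29), overlapped between groups. Ppp6c, the catalytic subunit of the related phosphatase PP6, was at 62.8 to 78.2 CPM without and 57.7 to 59.9 CPM with NCTD (-0.20, SE 0.14), without overlap. Of 33 tested genes of the PP2A and PP1 families, 1 was higher and 0 were lower at an unadjusted p below 0.05 (against 1.17% and 1.39% of all genes), with a median log2 fold change of 0.02. Without overlap 1 of the 33 lay higher and 1 lower with NCTD, where 0.708% and 1.05% of all genes did.

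Of the proteins stained in these tumors, the transcript of Mitf, the master regulator of melanocytes, went opposite ways without and with PTX. It was at 992 and 614 CPM in CONTROL_IP, 465 and 586 CPM in PTX_IP, 468 and 523 CPM in NCTD_IP and 687 and 872 CPM in MIX_IP. NCTD_IP lay below CONTROL_IP (log2 fold change -0.70, SE 0.26) and MIX_IP above PTX_IP (0.57, SE 0.25), and the difference between these effects was 1.27 (SE 0.36; edgeR adjusted p of the interaction = 0.778). Over all 8 tumors the log2 fold change was -0.06 (SE 0.26). The transcripts of the kinases and receptor Erbb2 (-0.40, SE 0.45), Braf (0.39, SE 0.26), Pik3ca (0.05, SE 0.13), Akt1 (0.19, SE 0.26) and Mtor (0.12, SE 0.20) overlapped between groups. Among 41 tested genes of the ERBB, PI3K, AKT, mTOR and RAF pathways 1 was higher, Gsk3a (0.37, SE 0.15), a kinase that AKT phosphorylates, and 0 were lower at an unadjusted p below 0.05, where 1.17% and 1.39% of all genes passed, so that the count is near the background.

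Some gene lists held the direction of their median without and with PTX, though many of their single genes did not. Of 25 tested genes of MAPK feedback and the immediate early response, which follow growth factor signals within minutes to hours, 21 were higher with NCTD. Of these, 3 had an unadjusted p below 0.05 (Spry4, Ier3 and Fos; 1.17% of all genes). The median was 0.19 (0.35 without PTX and 0.27 on PTX) against -0.01 over all genes. Gene by gene, 12 of the 25 were higher both without and on PTX, 6 were lower without PTX and 7 lower on PTX. The summed level of the list was 1171 and 1292 CPM in CONTROL_IP, 1349 and 1360 CPM in PTX_IP, 1534 and 1491 CPM in NCTD_IP and 1493 and 1491 CPM in MIX_IP. These sums did not overlap, and of the 41 lists this was the only one without overlap of its sums. Whether such a separation among 41 lists exceeds chance was not tested. Among the single genes of the list 1 did not overlap (Spry4), where 0.708% of all genes lay higher without overlap. With a tumor left out the median ran from 0.14 to 0.25 and the genes at the unadjusted threshold from 1 (without CONTROL_IP tumor 2) to 6 (without PTX_IP tumor 4). Ier3, an early response gene, was at 56.9 to 105 CPM without and 105 to 146 CPM with NCTD (0.56, SE 0.21), and Fos, a subunit of AP-1, at 12.1 to 25.2 and 20.4 to 42.6 CPM (0.71, SE 0.28).

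Of 24 glycolysis genes 21 were higher, with a median of 0.14 (0.11 without PTX and 0.20 on PTX), and 3 passed the unadjusted threshold (1.17% of all genes): Gapdh, the isomerase Gpi1 (509 to 704 CPM without, 708 to 798 CPM with NCTD; 0.37, SE 0.14) and the pyruvate kinase Pkm (1375 to 1791 and 1803 to 2057 CPM; 0.31, SE 0.14). Neither Gpi1 nor Pkm overlapped between groups, which made 2 of the 24 genes, against 0.708% of all genes higher without overlap. Gene by gene, 11 of the 24 were higher both without and on PTX, 6 were lower without PTX and 7 lower on PTX. With a tumor left out the glycolysis median ran from 0.08 (without PTX_IP tumor 3) to 0.24 (without CONTROL_IP tumor 1), and the genes at the threshold from 1 to 6 (6 without PTX_IP tumor 4). Of 23 HIF-1 targets, genes switched on when oxygen is low, 18 were higher (median 0.15, with -0.06 without PTX and 0.26 on PTX), led by the angiogenic factor Vegfa (0.61, SE 0.23). Of 78 nuclear genes of the respiratory chain 58 were higher (median 0.09, with 0.15 without PTX and 0.06 on PTX), led by the complex I subunit Ndufs7 (0.37, SE 0.14). Gene by gene, 33 of the 78 were higher both without and on PTX. In each list 1 gene was higher at an unadjusted p below 0.05, which 1.17% of all genes passed in this direction. Without overlap, 5 of the 78 respiratory chain genes lay higher and 1 lower, against 0.708% and 1.05% of all genes. None of the 23 HIF-1 targets was without overlap. Over all genes 47.7% were higher. Leaving out a tumor moved the HIF-1 median between 0.067 (without PTX_IP tumor 3) and 0.23 (without NCTD_IP tumor 6), with 0 to 3 genes at the threshold, and the respiratory chain median between 0.039 (without CONTROL_IP tumor 2) and 0.14 (without PTX_IP tumor 4), also with 0 to 3. Of 24 targets of NRF2, the regulator of antioxidant defense, 16 were higher (median 0.21 without PTX and -0.05 on PTX), and the glutathione transferase Gstm1 was at 82.8 to 101 CPM without and 111 to 145 CPM with NCTD (0.38, SE 0.13).

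Most fibroblast and matrix genes had lower means with NCTD, and few passed the unadjusted threshold. All 9 tested fibroblast markers had a negative log2 fold change (median -0.66, with -0.30 without PTX and -1.03 on PTX), 3 at an unadjusted p below 0.05, and in 24 of 30 matrix genes the sign was negative (median -0.26, with -0.29 and -0.48), 4 at that threshold, which 1.39% of all genes passed in this direction. No gene passed the adjusted test, and none of either list was without overlap. Col3a1, the chain of fibrillar collagen III, was at 211, 61.1, 254 and 163 CPM without and 26.9, 117, 65.8 and 60.3 CPM with NCTD (-1.32, SE 0.46). The proteoglycans Dcn (-1.18, SE 0.41) and Lum (-1.97, SE 0.71) and the collagen chain Col5a2 (-0.60, SE 0.25) complete the 4, of which the first 3 stand on both lists. The groups overlapped: summed fibroblast markers were 1196, 460, 1196 and 797 CPM without NCTD and 293, 1013, 477 and 481 CPM with it, with CONTROL_IP tumor 2 low and NCTD_IP tumor 6 high. With a tumor left out the fibroblast median ran from -1.33 (without NCTD_IP tumor 6) to -0.42 (without PTX_IP tumor 3), and its genes at the unadjusted threshold from 1 to 6. Without NCTD_IP tumor 6 the median of the matrix list was -0.60, and without NCTD_IP tumor 5 it was -0.09. The matrix genes at the unadjusted threshold numbered 1 to 12 (12 without NCTD_IP tumor 6).

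**Figure D3:**
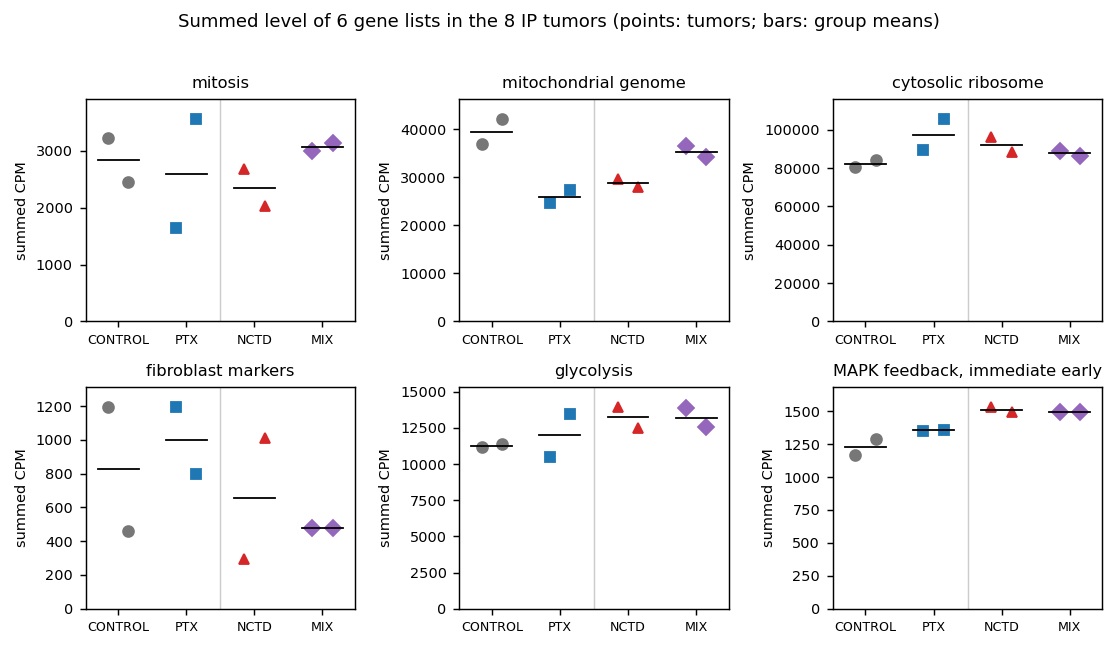
Summed CPM of 6 gene lists in each of the 8 IP tumors; points are tumors, black bars are group means, axes start at 0, and the grey line parts tumors without NCTD (left) from those with it (right). MAPK feedback genes, alone among the 41 lists, do not overlap between tumors without (1171 to 1360 CPM) and with NCTD (1491 to 1534 CPM). Genes of the mitochondrial genome are high in CONTROL_IP and MIX_IP.

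Other lists went opposite ways without and with PTX. In the interaction test, which compares the effect of NCTD on PTX with its effect without PTX, 0 genes (0%) passed the adjusted test in edgeR, 794 (6.39%) had an unadjusted p below 0.05, DESeq2 called 5 (500 at an unadjusted p below 0.05) and limma-voom 0 (751 at that threshold). BC005624, among the genes of smallest interaction p, had a log2 fold change of -1.19 without PTX and 1.57 on PTX. All 15 genes of the mitochondrial genome, which encodes subunits of the respiratory chain and the mitochondrial ribosomal RNAs, were lower in NCTD_IP than in CONTROL_IP (median -0.46) and higher in MIX_IP than in PTX_IP (median 0.39), and 11 of 15 had an unadjusted interaction p below 0.05. Their sum was 36981 and 42038 CPM in CONTROL_IP, 24548 and 27405 CPM in PTX_IP, 29692 and 28036 CPM in NCTD_IP and 36443 and 34236 CPM in MIX_IP. Tumors on a single drug were thus lower than those on none or on both, without overlap, and the opposite medians were kept when any of the 8 tumors was left out. These genes are cut from shared transcripts and are not independent.

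Mitosis genes also went opposite ways, but the medians rested on single tumors. Of 36 genes 31 were lower in NCTD_IP (median -0.33) and 31 were higher in MIX_IP (median 0.28). Their sum was 3217 and 2447 CPM in CONTROL_IP, 1634 and 3548 CPM in PTX_IP, 2670 and 2028 CPM in NCTD_IP and 3001 and 3136 CPM in MIX_IP. Without PTX_IP tumor 3 the median on PTX was -0.16, and without CONTROL_IP tumor 1 the median without PTX was -0.08. Genes of the cytosolic ribosome went the other way: 66 of 79 were higher in NCTD_IP (median 0.14) and 64 of 79 were lower in MIX_IP (median -0.13), the latter turning to 0.03 without PTX_IP tumor 4.

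The family of interferon-inducible GTPases, Tgtp1 and Tgtp2 included, was uneven between tumors. Of 16 tested members 14 were lower without PTX (median -0.40) and 13 higher on PTX (median 0.35), and the sum was 3616 and 6416 CPM in CONTROL_IP, 5340 and 1597 CPM in PTX_IP, 3702 and 3693 CPM in NCTD_IP and 4689 and 2593 CPM in MIX_IP. The median without PTX turned to 0.15 without CONTROL_IP tumor 2, and that on PTX to -0.25 without PTX_IP tumor 4 and -0.24 without MIX_IP tumor 7. Of 41 interferon response genes 29 were lower (median -0.17) and 0 passed the unadjusted threshold, and this median turned to 0.05 without CONTROL_IP tumor 2 and to 0.12 without PTX_IP tumor 3. The chemokine Cxcl10 was at 48.5 to 169 CPM without and 52.2 to 109 CPM with NCTD (-0.66, SE 0.36). The sum of MHC class II genes was 478 CPM in PTX_IP tumor 4 and 5682 CPM in PTX_IP tumor 3.

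**Figure D4:**
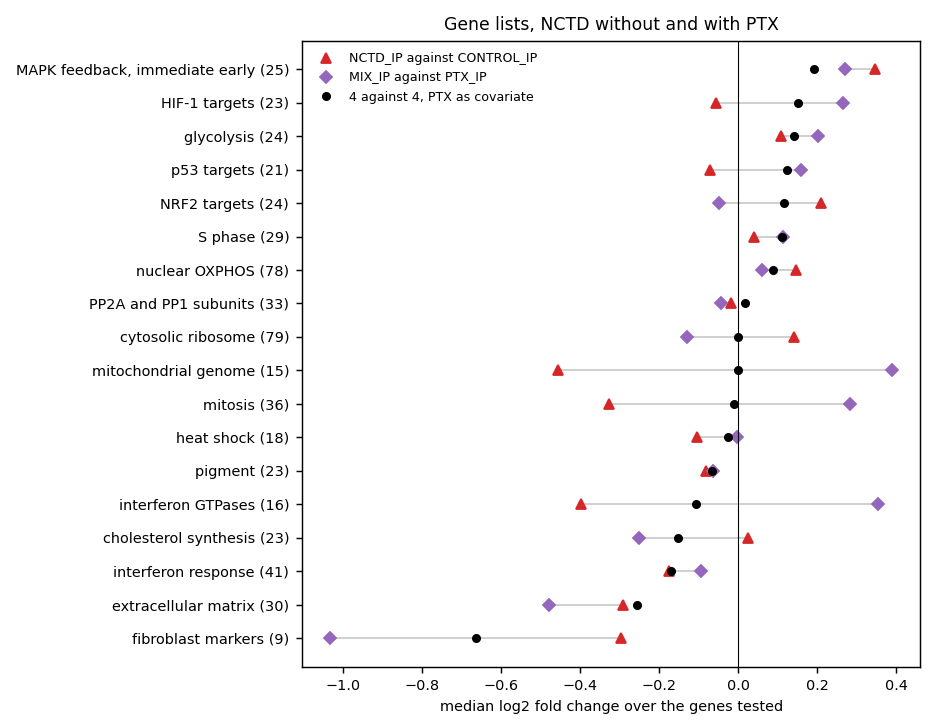
Median log2 fold change of 18 gene lists (number of genes tested in brackets) for NCTD_IP against CONTROL_IP (triangles), MIX_IP against PTX_IP (diamonds) and all 4 NCTD tumors against the other 4 (black dots). Triangle and diamond lie on opposite sides of 0 for the mitochondrial genome (-0.46 and 0.39) and mitosis (-0.33 and 0.28) and on the same side for fibroblast markers and MAPK feedback genes.

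The summed markers of every other cell type overlapped between the groups. All 4 tested erythroid markers were higher (median 0.87), with the globin genes Hba-a1 (0.86, SE 0.33) and Hba-a2 (1.02, SE 0.37) at an unadjusted p below 0.05 (1.17% of all genes), while the sum ran from 247 to 1847 CPM without and from 513 to 2076 CPM with NCTD. With a tumor left out their median ran from 0.55 (without CONTROL_IP tumor 2) to 1.52 (without CONTROL_IP tumor 1), and 0 (without MIX_IP tumor 8) to 4 (without CONTROL_IP tumor 1) passed. Macrophage markers (9 tested, sum 310 to 1635 and 728 to 1445 CPM) and endothelial markers (6 tested, 52.0 to 79.8 and 44.8 to 72.5 CPM) overlapped, with 0 genes at that threshold. At that threshold 1 of 10 T and NK cell markers was lower, the NK receptor Ncr1 (-1.80, SE 0.71). The same held for 1 of 4 muscle markers, the troponin Tnnt3 (-2.48, SE 0.91), where 1.39% of all genes passed in this direction. By sign alone 5 of the 10 T and NK cell markers and all 4 muscle markers were lower. Of 2 fat cell markers, Cfd was lower as given above and the fatty acid carrier Fabp4 had a log2 fold change of -0.50. Neutrophil (4 tested), dendritic cell (5), B and plasma cell (2) and keratinocyte (5) markers had 0 genes at the threshold.

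The pigment list, which includes the melanoma markers, held 23 tested genes of which 15 were lower, with 0 at an unadjusted p below 0.05. Dct was at 14986 to 20161 CPM without and 12907 to 14193 CPM with NCTD, without overlap (-0.31, SE 0.14). Of 23 genes of cholesterol synthesis 20 were lower (median -0.15, with 0.03 without PTX and -0.25 on PTX) with 0 at the threshold, and with a tumor left out 14 to 22 were lower and the median ran from -0.26 (without NCTD_IP tumor 5) to -0.041 (without MIX_IP tumor 7). Of 21 tested p53 targets 14 were higher and 7 lower, with a median of -0.07 without PTX and 0.16 on PTX. At an unadjusted p below 0.05 1 was higher (1.17% of all genes) and 0 were lower. The p53 target Cdkn1a, a cell cycle inhibitor, was at 62.0 to 80.6 CPM without NCTD, 84.8 and 68.5 CPM in NCTD_IP and 144 and 123 CPM in MIX_IP (0.50, SE 0.19). Other lists had at most 2 genes lower at the threshold, where 1.39% of all genes passed in this direction. Of 79 ribosomal protein genes these were Rpl23a (-0.69, SE 0.23) and Rpl30 (-0.51, SE 0.22). Of 30 autophagy and lysosome genes it was the lysosomal channel Mcoln1 (-0.56, SE 0.23), of 11 MHC class II genes H2-Ob (-2.70, SE 0.89) and of 18 heat shock genes Hspb1. S phase (29 genes), mitochondrial ribosome (74), BCL-2 family and caspases (27), endoplasmic reticulum stress (29), WNT (20), NF-κB and cytokines (24), MHC class I (19), circadian clock (14) and thioredoxin (16) lists had 0.

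The effect of NCTD by the IP route was set against that by the IT route in all 23 tumors. Route, the batch named in the labels and vehicle (saline or DMSO) changed together and cannot be told apart. Of 13395 genes, 0 (0%) differed between the routes at an adjusted p below 0.05 in edgeR and 960 (7.17%) at an unadjusted p below 0.05, while DESeq2 called 4 (Saa3, Mmp3, Fndc1 and Podn; 1021 at an unadjusted p below 0.05) and limma-voom 0 (970 at that threshold). Podn was named after its values were seen. The acute phase gene Saa3 had a log2 fold change of -1.62 (SE 0.52) with IP and 2.58 with IT treatment, and the stromelysin Mmp3 of -1.56 (SE 0.80) and 3.14. Of 9 fibroblast markers, all negative by the IP route, 8 were positive by the IT route (median 1.95), and 7 had an unadjusted p of the route difference below 0.05; for 30 matrix genes 27 were positive by the IT route and 15 had such a p. Gapdh had the reverse signs, with 0.65 (SE 0.21) with IP and -0.92 (SE 0.24) with IT treatment. The difference did not pass the adjusted test (edgeR adjusted p = 0.535). Of 24 glycolysis genes 19 were lower with IT treatment. Tgtp1 (0.20, SE 0.82) and Tgtp2 (-0.30, SE 0.44) were near 0 by the IT route, and their route differences had edgeR adjusted p-values of 0.768 and 0.687.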

How the data were processed

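RNA of 8 IP tumors (and, for the route difference, 15 IT tumors) was sequenced by the authors from the 3′ end. Per the labels' processing notes, reads were handled with FastQC, Trimmomatic and STAR 2.7.11b on GRCm39, and the authors deposited whole-number counts of reads per gene without normalization; strand setting, multi-mapping and molecular identifiers are not given in the sources used here, so near-identical, overlapping and antisense genes can share reads. The table has 56748 genes, and 0 per-tumor columns were left unused.

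The deposited counts were modelled with edgeR 4.0.16 under R 4.3.3 (TMM scaling; filterByExpr by the 4 groups, minimum count 10, minimum total 15; quasi-likelihood test, two-sided, Benjamini-Hochberg over all genes tested, threshold 0.05). The main model had PTX and NCTD as terms. A model of 4 group means gave the effects without and on PTX and their interaction, and a model of 8 group means over 23 tumors the route difference. Standard errors were the log2 fold change divided by the square root of the F statistic. The distance share used log2 CPM with a prior count of 2 and an exact permutation within PTX strata. DESeq2 1.42.0, limma-voom (limma 3.58.1), other scaling, filters, tumors left out and added covariates were alternatives. The models were tested on simulated data.

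The comparison, the 41 gene lists and the naming rule were chosen with earlier results of these data known. By the naming rule, the text gives the 12 protein-coding genes of smallest p on either side, 3 of other biotypes in each, up to 4 per list, PP2A and PP1 subunits, genes of stained proteins, sex-linked genes, and up to 5 genes each of the interaction and the route difference.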

Additional observations from a re-analysis of the deposited data

Results flagged for a closer look

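Within the 4 tumors with NCTD and the 4 without, 170 sets of values (43 genes, the sums of 41 lists and the total counts, in each of both sets of tumors) were searched for a tumor that stood apart, by the gap to its nearest neighbor as a share of the whole range (Dixon's 95% critical value). Chance gives about 1 in 20, and 9 of 170 passed. B4galt6 passed in both sets of tumors, with MIX_IP tumor 8 highest (62.8 CPM against 54.6 to 55.7 CPM; gap 0.864 of the range) and PTX_IP tumor 4 highest (40.1 against 37.0 to 37.1 CPM; 0.97). Braf was highest in MIX_IP tumor 8 (27.6 against 16.4 to 17.2 CPM; 0.928). CONTROL_IP tumor 1 was highest for Pik3ca (99.7 against 90.3 to 91.5 CPM; 0.877), Akt1 (1025 against 537 to 605 CPM; 0.862) and the summed erythroid markers (1847 against 247 to 459 CPM; 0.868). The summed keratinocyte markers were highest in NCTD_IP tumor 6 (41.4 against 1.59 to 4.54 CPM; 0.926) and in PTX_IP tumor 3 (143 against 1.11 to 13.6 CPM; 0.912). The summed MAPK feedback genes were highest in NCTD_IP tumor 5 (1534 against 1491 to 1493 CPM; 0.948).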

How the results depend on the processing

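No paired analysis was possible because the labels give each tumor a replicate number of its own, shared with no tumor of another group. The absence of calls in the NCTD comparison depended on the tool and the filter: DESeq2 called 3 genes, and edgeR without a filter (every gene with at least 1 count) called 57, of which 52 were among the 12424 genes tested. For NCTD_IP against CONTROL_IP these counts were 1 and 71, for MIX_IP against PTX_IP 5 and 107, for the interaction 5 and 109 and for the route difference 4 and 140. Genes at an unadjusted p below 0.05 in the NCTD comparison numbered 675 without a filter, 193 with all 23 tumors in the model and 42 at a threshold of 0.01, and 254 to 676 when a tumor was left out (676 without PTX_IP tumor 4). Leaving out a tumor gave 0 calls throughout in the NCTD comparison, 0 to 3 for NCTD_IP against CONTROL_IP, 0 to 2 for MIX_IP against PTX_IP and 0 to 2 for the interaction. With 1 tumor left in a group, that tumor was assumed to vary like the others. The calls of NCTD_IP against CONTROL_IP came without NCTD_IP tumor 5 (1) and tumor 6 (3), those of MIX_IP against PTX_IP without PTX_IP tumor 3 (2) and MIX_IP tumor 7 (1), and those of the interaction without NCTD_IP tumor 6 (2) and MIX_IP tumor 8 (1). The cause was not tested. The distance share was 13.3% to 17.2% with a tumor left out (exact permutation p 0.389 to 0.944). Genes named for a small p kept their sign under all alternatives in which they were tested (Eepd1, Cfd and ENSMUSG00000121093 were not tested in thinned counts). Their choice by small p in these same tumors favors this, so a kept sign is no support for them. Among the named genes, signs turned for 7 phosphatase subunits and stained-protein genes, each with an edgeR adjusted p of 1.00. With a tumor left out the range was -0.27 to 0.21 for Mitf, -0.035 to 0.12 for Ppp1cb, -1.002 to 0.041 for Ppp1ca, -0.11 to 0.28 for Ppp1cc, -0.098 to 0.010 for Ppp2ca, -0.022 to 0.27 for Mtor and -0.11 to 0.42 for Akt1. With Xist as a covariate Ppp1ca was 0.033, and with counts thinned to the smallest total, chosen after seeing the data, Ppp1cb was -0.019. Depth limits genes under about 1 CPM, where 3 counts are 0.448 to 0.849 CPM.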
